A study of Rattus norvegicus with 16 samples.

Results

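The comparison set all 8 arrays of rats given obestatin against all 8 arrays of rats given saline, with the stomach and the middle part of the intestine pooled and the tissue kept as a covariate. The members are therefore the 16 arrays of the whole series, chosen by their labels alone. Each tissue had 4 C arrays and 4 OH arrays. C denotes suckling Wistar rats (Wistar in the labels, with parents described as Wistar Han) given saline solution by the enteral route, and OH denotes their counterparts given obestatin at 250 nmol/kg body weight. Dosing was done 2 times daily from day 14 of life until they were killed on day 21, and all stayed with their mothers. No array of a lower dose was analysed here, the sex of the pups is not given, and pups of a litter were not told apart. The sources do not settle whether the stomach and intestine arrays with the same number came from the same rat, so the 8 arrays of a treatment may stand for 4 rats.

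Obestatin is a peptide cut from the same precursor as ghrelin, the hunger hormone of the stomach, and it is made mainly by endocrine cells of the gastric mucosa and is present in milk. Its receptor is disputed, with GPR39 and the GLP-1 receptor both proposed, and its signal has been followed through mitogen-activated protein (MAP) kinases. The third week of life is the time at which the gut of the rat prepares for weaning. The question put to the pooled arrays was which genes differed between OH and C the same way in stomach and in middle intestine.

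Each array was hybridized with 2 labelled samples: the tissue of the rat in Cy5, and a pool of RNA from all animals, the common reference, in Cy3. The measure was the log2 of processed Cy5 over processed Cy3 signal, called the ratio, so that a difference of 1 is a 2-fold change. A difference is always OH minus C. Cy5 and Cy3 were also taken apart, each as log2 processed signal minus the median of its array. The same pool was on all 16 arrays, so the RNA labelled with Cy3 was the same for OH and C. The 2 channels of an array were normalized together, so processed Cy3 is not independent of processed Cy5.

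The arrays held 58717 spots that were not controls, of which 69.4% to 77.6% were well above background in Cy5. A slide held 1 group only, and the slides of OH and of C were scanned on different days. For every value given here the treatment cannot be told apart from the slide and the scan day. Before normalization the common reference had a median signal of 341 to 399 scanner units on the OH arrays and 188 to 195 on the C arrays, with no overlap. For Cy5 this was 163 to 328 on OH arrays and 178 to 293 on C arrays. Genes of the oxyntic and surface mucosa had a mean log2 ratio of 1.94 to 3.09 on the stomach arrays and -4.42 to -3.75 on the intestine arrays, as their labels say. The reverse held for enterocyte genes, at -3.61 to -3.27 in stomach and -1.13 to 1.29 in intestine. One stomach array stood apart, C stomach replicate 2, whose striated muscle markers averaged -0.89 while the other C stomach arrays lay between 2.77 and 3.46.

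Of 21174 probes with signal in at least 1 group, 103 (0.486%) passed the threshold, an adjusted p of 0.05 in limma, between OH and C. Higher in OH were 75 probes (0.354%) and lower were 28 (0.132%). Among those with a gene symbol, 52 genes rose and 23 fell in the ratio. The differences ranged from 0.25 to 1.42 on the log2 scale among the higher probes and from -1.68 to -0.26 among the lower ones, and 14 of all 103 were over 1 in size. Every one of the 103 had the same sign in stomach and in intestine, which a fit to both tissues favours. In 63 of them the OH and C arrays did not overlap within either tissue. Over all probes kept, 167 (0.789%) were apart in this way. The smallest adjusted p was 0.00324, shared by Tspyl2, Reep3 and Diaph3. Just inside the threshold lay Cep290 (-0.39, adjusted p = 0.0498) and Wdr20 (0.48, adjusted p = 0.04998), and just outside it Mob1b (0.52, adjusted p = 0.0506) and Abhd15 (-0.76, adjusted p = 0.0506).

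The number of calls depended on how the arrays were counted as rats. With the arrays of the same number averaged as 1 rat, 4 rats against 4, limma called 0 probes (smallest adjusted p 0.104). Without C stomach replicate 3 the fit called 30 probes, and without C stomach replicate 2 it called 179.

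**Figure D1:**
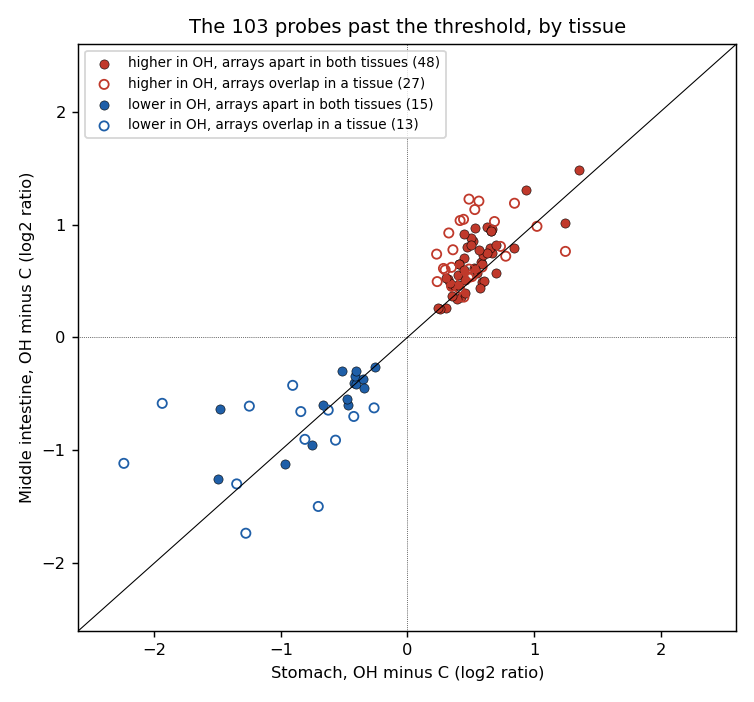
Difference in the log2 ratio between OH and C in stomach (x axis) and in middle intestine (y axis) for the 103 probes past the threshold. Red marks the 75 probes higher in OH and blue the 28 lower ones, filled where the arrays were apart in both tissues (48 and 15), and the line marks equal differences: all points lie in the 2 quadrants where the tissues have the same sign, which the pooled fit favours.

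The channels behind these ratios differed between the higher and the lower probes. The 75 higher probes had a median ratio of 0.57, and in Cy5 their median difference was -0.04 while in Cy3 it was -0.66. In 71 of them the common reference itself was lower on the OH arrays past the threshold, and in 68 the Cy3 difference was larger in size than that of Cy5. In Cy5 alone, 3 of the 75 rose and 3 fell, beside 1.06% higher and 7.01% lower of all probes. The 28 lower probes had a median ratio of -0.65, with -0.69 in Cy5 and 0.11 in Cy3. Of these, 15 also fell in Cy5 and 14 did not pass in Cy3. Thus 18 of the 103 probes passed in the ratio and in the tissue's own channel in the same direction, 3 higher and 15 lower, and 13 of these did not pass in the reference. This count of 18 fell to 3 without OH stomach replicate 2, was 32 without C stomach replicate 2, and was 0 with the arrays averaged as 4 rats against 4.

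The background of each channel was high. In Cy5 alone 1708 probes (8.07%) passed, of which 1484 (7.01%) were lower in OH, and 1509 of the 1708 passed in the same direction in Cy3. In Cy3 alone 12449 probes (58.8%) passed, although both treatments carried the same pool. Between the 2 slides of the same treatment, which also carried this pool, 2419 probes (11.4%) differed in Cy3 for OH and 6823 (32.2%) for C. Across probes, which are not independent, the Cy5 and Cy3 differences correlated with Pearson's r = 0.62 (21174 probes, the same 16 arrays, signals normalized together). Without the median of each array removed, the median of all probes moved by 0.20 in Cy5 and by 0.21 in Cy3 between OH and C. The Cy5 calls then turned to 2122 higher and 294 lower, so Cy5 differences below are relative to the array median.

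**Figure D2:**
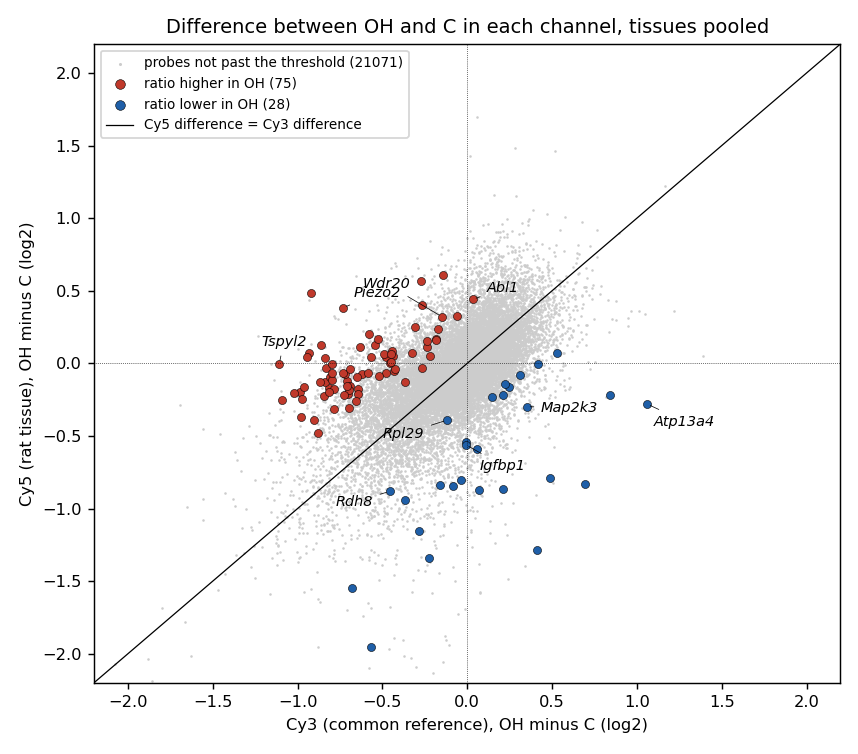
Difference between OH and C of each probe in the common reference (Cy3, x axis) and in the tissue (Cy5, y axis), log2 signal minus the array median, tissues pooled; grey marks probes not past the threshold in the ratio, red the 75 higher and blue the 28 lower ones, and 12 probes lie outside the axes. Most red points lie left of 0 near the horizontal line, with a median of -0.66 in Cy3 and -0.04 in Cy5, and most blue points lie below it, with a median of -0.69 in Cy5.

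The genes that fell in the ratio and in Cy5, with arrays apart in both tissues, were Igfbp1, RGD1308775, Gpr152, Rdh8 and Rpl29. Igfbp1 encodes a secreted protein that binds insulin-like growth factors, Rpl29 a protein of the large ribosomal subunit, Rdh8 a retinol dehydrogenase known from photoreceptors and Gpr152 an orphan G protein-coupled receptor. The first 250 bases upstream of the start of 3 of these genes are shown, together with those of Map2k3, because these genes moved the same way in both tissues. The sequences are those of RefSeq (GRCr8 assembly), which held a promoter for 10 of the 14 genes looked up. Capitals mark the letters CCAAT and GGGCGG on either strand.
Igfbp1 chr14:86261027-86261276 plus strand: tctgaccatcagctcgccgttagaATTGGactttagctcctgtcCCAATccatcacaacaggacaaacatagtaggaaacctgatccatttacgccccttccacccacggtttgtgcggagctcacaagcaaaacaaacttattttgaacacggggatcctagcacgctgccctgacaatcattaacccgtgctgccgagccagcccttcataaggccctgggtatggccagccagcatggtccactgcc
RGD1308775 chr14:83013550-83013799 minus strand: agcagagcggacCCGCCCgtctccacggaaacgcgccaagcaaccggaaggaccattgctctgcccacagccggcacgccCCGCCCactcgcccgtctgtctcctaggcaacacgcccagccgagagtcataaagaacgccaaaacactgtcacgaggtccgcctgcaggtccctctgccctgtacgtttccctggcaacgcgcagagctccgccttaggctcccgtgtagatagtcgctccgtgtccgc
Rpl29 chr8:115947393-115947642 plus strand: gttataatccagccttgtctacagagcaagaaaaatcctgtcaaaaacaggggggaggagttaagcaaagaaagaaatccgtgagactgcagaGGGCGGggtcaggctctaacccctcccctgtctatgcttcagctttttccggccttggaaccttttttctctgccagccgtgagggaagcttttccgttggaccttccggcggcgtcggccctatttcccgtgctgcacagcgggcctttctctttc
Map2k3 chr10:46107389-46107638 plus strand: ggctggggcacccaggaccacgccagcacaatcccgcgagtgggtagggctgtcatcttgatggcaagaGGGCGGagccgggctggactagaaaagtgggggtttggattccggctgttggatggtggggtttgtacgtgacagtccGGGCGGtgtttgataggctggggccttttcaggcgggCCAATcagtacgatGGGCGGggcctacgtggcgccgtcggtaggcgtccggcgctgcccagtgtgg
The search covered both strands for the TATA box TATAAA, the CCAAT box, the GC box GGGCGG, the AP-1 motif TGANTCA, the cyclic AMP element TGACGTCA, the E-box CACGTG and the forkhead motif TGTTTAC. Their letters do not contain one another. CCAAT stood in the windows of Igfbp1 and Map2k3, and in 34.0% of all 33469 promoters of that table. GGGCGG stood in those of RGD1308775, Rpl29 and Map2k3, and in 30.5% of all promoters. None of the other motifs was found in these 4 windows as the exact letters given, and variants of a motif were not searched.

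In Igfbp1 the lower ratio came almost wholly with Cy5. Its log2 ratio was -1.52, -1.42, -1.65 and -1.76 in C stomach and -2.09, -1.95, -1.88 and -2.32 in OH stomach. In the intestine it was -1.54, -1.52, -1.33 and -1.62 in C and -2.03, -2.22, -1.96 and -2.19 in OH. All 8 OH arrays lay below all 8 C arrays. The difference was -0.54 ± 0.08 (SE, 8 arrays against 8, adjusted p = 0.0118, limma), with -0.47 in stomach and -0.60 in intestine. In Cy5 the difference was -0.56 ± 0.09 (adjusted p = 0.00239, limma), and in Cy3 it was -0.01 ± 0.03 (adjusted p = 0.798), the reference being at 1.37 to 1.59 on all 16 arrays. The ratio passed with each of the 16 arrays left out and in 14 of 18 other settings. It did not pass when scaled between arrays, with arrays averaged as rats, with trend and robust moderation, or with 2 arrays left out together. The fall in Cy5 held with quantile scaling (-0.54, adjusted p = 0.00566), but not without removal of the array median (-0.31, adjusted p = 0.0810), a setting that left the median probe 0.20 higher in OH. The probe lies on chromosome 14 at 87954736 to 87954795, plus strand, on the rn4 build named in the array design. The part of the gene it covers was not analysed here.

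Rpl29 had the smallest spread of these genes. Its log2 ratio was 0.04, -0.01, 0.00 and 0.00 in C stomach and -0.28, -0.27, -0.25 and -0.19 in OH stomach. In C intestine it was -0.02, -0.09, -0.01 and -0.05, and in OH intestine -0.32, -0.27, -0.34 and -0.29. The groups did not overlap in either tissue, and the difference was -0.26 ± 0.05 (SE, adjusted p = 0.0400, limma), which passed in 3 of the 16 fits with 1 array left out. The Cy5 difference was -0.39 ± 0.06 (adjusted p = 0.00139) and the Cy3 difference -0.12 ± 0.05 (adjusted p = 0.0407). The fall of Rpl29 in Cy5 did not pass with quantile scaling (-0.19, adjusted p = 0.0590) or without removal of the array median (-0.14, adjusted p = 0.335). Near-identical processed copies of ribosomal protein genes are common in mammalian genomes, and whether this probe also binds such copies was not analysed here.

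The other genes of this group were dimmer or fell in the common reference as well. RGD1308775, listed as C14h5orf52 by RefSeq, had the lowest Cy5 difference of the group, -1.15 ± 0.22 (adjusted p = 0.00542), and a ratio difference of -0.85 ± 0.15 (adjusted p = 0.0285). Its ratio in stomach was 0.08 to 0.83 in C against -0.74 to -0.03 in OH, and in intestine 1.12 to 2.01 against 0.34 to 0.98. It was well above background on 4 C stomach, 2 OH stomach, 3 C intestine and 2 OH intestine arrays. The filter on signal kept this probe only through C stomach, where it was higher than in OH stomach, so its call is not independent of that filter. Rdh8 fell by 0.88 ± 0.08 in Cy5 (adjusted p = 0.000177, limma). It also fell by 0.46 in Cy3 (adjusted p = 1.42e-06, limma), which left a smaller ratio difference of -0.41 ± 0.08 (adjusted p = 0.0456). Gpr152 had differences of -0.51 ± 0.11 in the ratio (adjusted p = 0.0498), -0.54 ± 0.12 in Cy5 (adjusted p = 0.0122) and -0.01 in Cy3. In Cy5, Rdh8 also passed without removal of the array median and with quantile scaling, Gpr152 passed with neither (adjusted p = 0.0883 and 0.154), and RGD1308775 passed with the former only (adjusted p = 0.0323 and 0.0538). Of the 16 fits with 1 array left out, the ratio passed in 10 for RGD1308775, 3 for Rdh8 and 1 for Gpr152. With normexp background correction and loess the ratio difference was -0.29 for RGD1308775 and -0.20 for Gpr152, and neither passed.

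**Figure D3:**
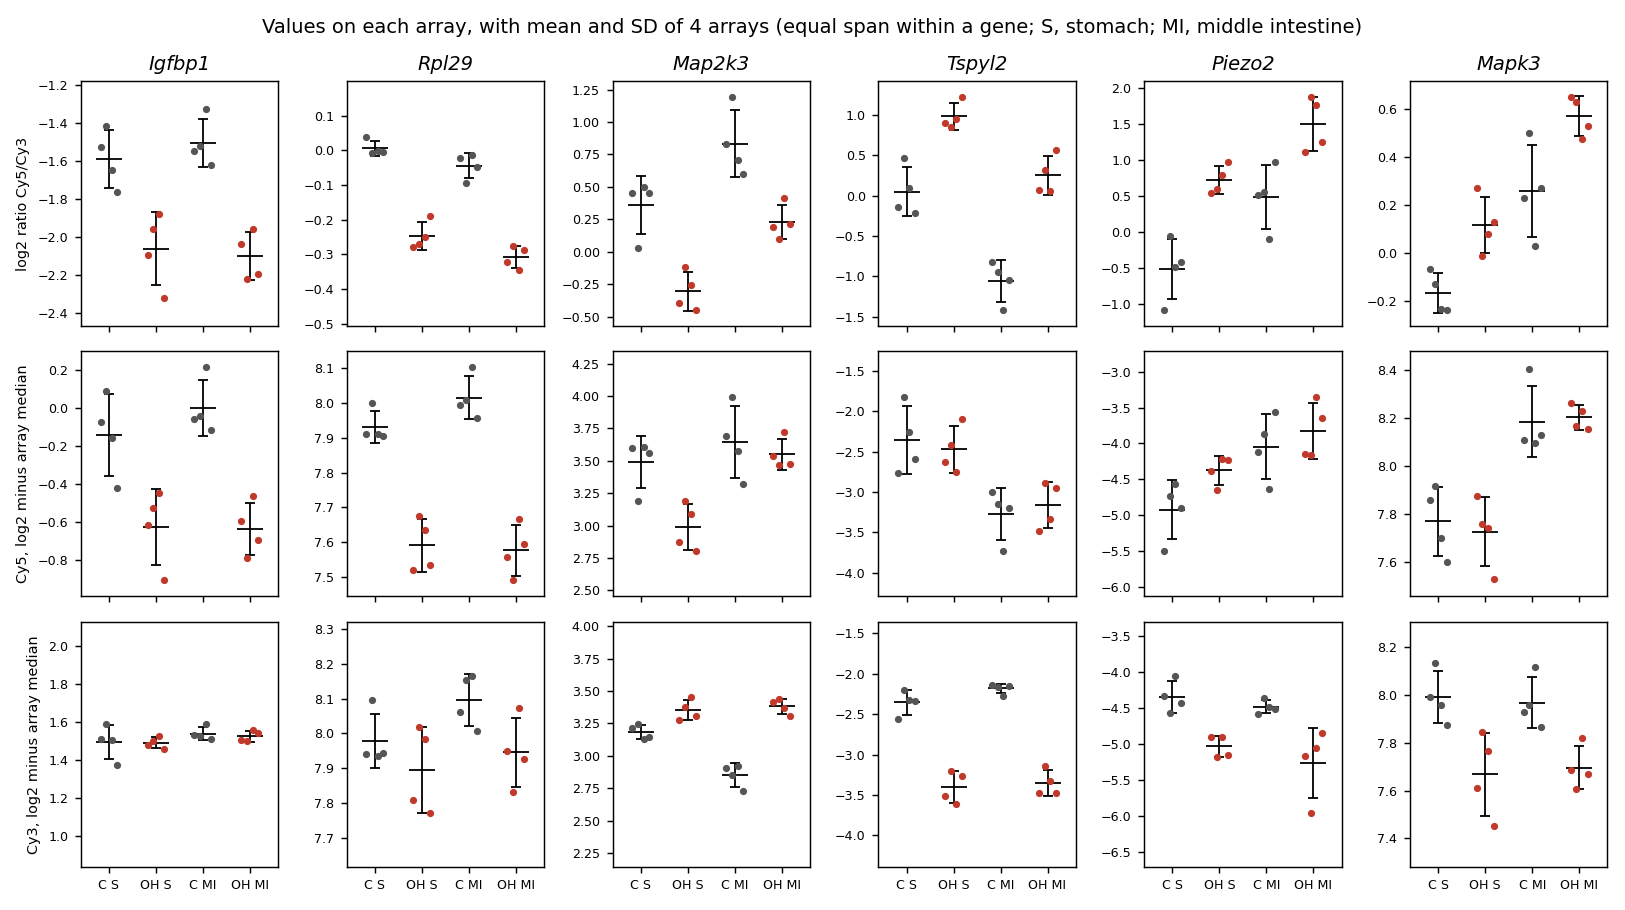
Log2 ratio (top), Cy5 (middle) and Cy3 (bottom, both as log2 signal minus the array median) of 6 genes on each array, with the mean and SD of 4 arrays; grey is C, red is OH, S is stomach and MI middle intestine, and the 3 axes of a gene have the same span. Igfbp1 and Rpl29 are lower in OH in Cy5 by more than in Cy3, and Piezo2 is a dim probe. Map2k3 is higher in OH in Cy3 past the threshold and lower in Cy5 short of it, and Tspyl2 and Mapk3 differ in Cy3 alone.

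Among 30 measured genes of the MAP kinase cascade, Map2k7 rose and Map2k3 fell in the ratio, and 28 did not pass, so that 2 of the 30 were called against 0.486% of all probes. Map2k3 had already been named by the study from these same arrays, so this share is not independent of that result. The median difference of the list was 0.04 (0.01 over all probes). Map2k3 is a kinase that activates p38 kinases, and Map2k7 one that activates JNK kinases. The log2 ratio of Map2k3 was 0.45, 0.03, 0.50 and 0.45 in C stomach and -0.39, -0.12, -0.26 and -0.45 in OH stomach. In intestine it was 0.83, 1.19, 0.70 and 0.60 in C against 0.19, 0.10, 0.42 and 0.21 in OH. The groups were apart in both tissues, by -0.66 in stomach and -0.60 in intestine, and the pooled difference was -0.63 ± 0.10 (SE, adjusted p = 0.0118, limma). It passed with each of the 16 arrays left out and in 15 of 18 other settings. The call was lost when scaled between arrays, without tissue in the fit and with arrays averaged as rats. The tissue channel gave less of this pooled difference: the Cy5 difference was -0.30 ± 0.11 (adjusted p = 0.132) and did not pass. The Cy3 difference was 0.35 ± 0.06 (adjusted p = 9.92e-05). By tissue, Cy5 differed by -0.50 in stomach and -0.10 in intestine, and Cy3 by 0.17 in stomach and 0.53 in intestine. Whether the tissues differed within a channel was not tested. In the common reference Map2k3 stood at 3.13 to 3.25 on the C stomach slide, 2.72 to 2.92 on the C intestine slide and 3.28 to 3.45 on both OH slides. Without removal of the array median the Cy5 difference was -0.05. The probe is at 47096527 to 47096586 on chromosome 10, plus strand (rn4).

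Mapk3, the kinase also known as ERK1, did not pass in the ratio. Its values were -0.07, -0.13, -0.24 and -0.24 in C stomach, 0.27, -0.01, 0.08 and 0.13 in OH stomach, 0.23, 0.50, 0.03 and 0.27 in C intestine, and 0.65, 0.63, 0.48 and 0.53 in OH intestine. The OH arrays lay above the C arrays in stomach, and in intestine the ranges overlapped. The difference was 0.30 ± 0.07 (adjusted p = 0.0744, limma), with -0.01 ± 0.08 in Cy5 and -0.30 ± 0.06 in Cy3 (adjusted p = 0.000389). Map2k7 rose by 0.86 ± 0.18 in the ratio (adjusted p = 0.0456), with -0.25 in Cy5 (adjusted p = 0.395) and -1.09 in Cy3. This call held in 2 of the 16 fits with 1 array left out, and the difference was 0.34 with normexp and loess. Of the other members, Mapk8 (0.29) had an adjusted p of 0.161. In Cy5 alone Map2k2 fell (-0.23) and Map3k4 rose (0.33), 1 of the 30 each, beside 7.01% lower and 1.06% higher of all probes. In Cy3 alone 11 of the 30 were higher and 10 lower, beside 24.9% higher and 33.9% lower of all probes.

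Among called genes with arrays apart in both tissues, the largest rises in the ratio with no rise in Cy5 were those of Tspyl2, Calu, Ube2v1 and Diaph3. Tspyl2 belongs to the nucleosome assembly proteins, Calu is a calcium-binding protein of the secretory pathway, Ube2v1 a ubiquitin-conjugating enzyme variant and Diaph3 a formin that assembles actin. The log2 ratio of Tspyl2 was -0.14, 0.46, 0.09 and -0.22 in C stomach and 0.90, 0.85, 0.95 and 1.22 in OH stomach. In intestine it was -0.82, -0.94, -1.42 and -1.05 in C and 0.07, 0.32, 0.06 and 0.56 in OH. These ranges lay far apart in both tissues, and the difference was 1.12 ± 0.13 (SE, adjusted p = 0.00324, limma). In Cy5 the OH and C arrays overlapped in both tissues and differed by 0.00 ± 0.16 (adjusted p = 0.995). In Cy3 the difference was -1.11 ± 0.07, from -2.56 to -2.14 on the C arrays to -3.61 to -3.14 on the OH arrays. The probe is at 41839086 to 41839145 on chromosome X, minus strand (rn4).

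Calu, Ube2v1 and Diaph3 had the same form. Their ratio differences were 0.82 ± 0.14, 0.81 ± 0.12 and 0.81 ± 0.10 (adjusted p = 0.0192, 0.00615 and 0.00324, limma). Their Cy5 differences were -0.03, -0.16 and -0.01, none of which passed, and their Cy3 differences were -0.84, -0.96 and -0.80. In the common reference Calu lay between 0.56 and 0.74 on the C arrays and between -0.29 and -0.10 on the OH arrays. All 5 probes of Ube2v1 and both of Diaph3 had a positive difference, and 1 probe of each passed. With normexp and loess the difference was 0.44 for Tspyl2 and 0.48 for Diaph3, and both still passed. The opposite form was seen for S1pr5, a receptor of the lipid sphingosine phosphate. Its ratio fell by 1.04 ± 0.17 (adjusted p = 0.0126), with -0.22 in Cy5 (adjusted p = 0.409) and 0.84 in Cy3, and in intestine it was well above background in Cy5 on 0 of 8 arrays. With normexp and loess its ratio difference was -0.17 and did not pass.

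A further group rose in the ratio with a positive Cy5 difference in both tissues. The 3 probes of it that passed in the ratio and in Cy5 were those of Wdr20, RGD1564676 and Abl1, of which only Wdr20, a partner of deubiquitinating enzymes, had arrays apart in both tissues. The ratio difference of Wdr20 was 0.48 ± 0.10 (adjusted p = 0.04998), its Cy5 difference 0.32 ± 0.09 (adjusted p = 0.0481) and its Cy3 difference -0.15 (adjusted p = 0.0281). Its ratio passed in 2 of the 16 fits with 1 array left out, and with normexp and loess the difference was 0.18 (adjusted p = 0.0844). In stomach its ratio was -0.26 to 0.29 in C against 0.30 to 0.79 in OH, and in intestine -0.50 to -0.03 against 0.17 to 0.48. These ranges touched without overlap in stomach. RGD1564676 and Abl1 fell outside the naming rule because their arrays overlapped, and were picked after their values were seen. RGD1564676 had 0.77 ± 0.14 in the ratio (adjusted p = 0.0329), 0.61 in Cy5 (adjusted p = 0.0158) and -0.15 in Cy3. Abl1, a tyrosine kinase, had 0.42 in the ratio, 0.44 in Cy5 (adjusted p = 0.0260) and 0.03 in Cy3.

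Reep3, which shapes the endoplasmic reticulum, had a ratio of -0.20, -0.04, -0.20 and -0.18 in C stomach and 0.63, 0.54, 0.45 and 0.43 in OH stomach. In intestine the values were -0.81, -0.50, -0.91 and -0.49 in C and 0.40, 0.04, -0.14 and -0.04 in OH. The arrays were apart in both tissues, with a difference of 0.71 ± 0.09 (adjusted p = 0.00324, limma). Cy5 gave 0.17 (adjusted p = 0.325) and Cy3 -0.52. Foxj3, a forkhead transcription factor, had 0.57 ± 0.08 in the ratio (adjusted p = 0.00813), 0.25 in Cy5 (adjusted p = 0.103) and -0.31 in Cy3. With normexp and loess its ratio difference was 0.18 and did not pass. Asmt, the last enzyme of melatonin synthesis, had 0.68 ± 0.14 in the ratio (adjusted p = 0.0402), 0.40 in Cy5 (adjusted p = 0.0588) and -0.27 in Cy3. Its ratio passed in 4 of the 16 fits with 1 array left out, and with normexp and loess it was 0.19 and did not pass. In Cy5 the other scalings gave larger differences. Foxj3 passed with quantile scaling (0.45, adjusted p = 0.0108) and without removal of the array median (0.50, adjusted p = 0.0110), as did Asmt (0.64, adjusted p = 0.00610, and 0.65, adjusted p = 0.0137). Reep3 passed only without removal of the array median (0.42, adjusted p = 0.0219).

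The highest differences of this group belonged to dim probes. Tas2r121, a bitter taste receptor, had 1.42 ± 0.21 in the ratio (adjusted p = 0.00941), 0.48 in Cy5 (adjusted p = 0.211) and -0.92 in Cy3. It was well above background in Cy5 on all 4 OH stomach arrays, on 1 C stomach array and on 0 of the 8 intestine arrays. The filter on signal kept this probe only through OH stomach, where it was high, so its call is not independent of that filter. Piezo2, a mechanically gated ion channel of sensory and enterochromaffin cells, had 1.13 ± 0.17 in the ratio (adjusted p = 0.0114), 0.38 in Cy5 (adjusted p = 0.222) and -0.73 in Cy3. It was well above background on all 8 OH arrays and on 1 C array in each tissue. Piezo2 was thus kept by the filter only through the OH groups, where it was high, and the same limit holds. With quantile scaling both passed in Cy5, Tas2r121 at 0.79 (adjusted p = 0.0414) and Piezo2 at 0.67 (adjusted p = 0.0361). Without removal of the array median Tas2r121 passed (0.74, adjusted p = 0.0426) and Piezo2 did not (0.63, adjusted p = 0.0608). With normexp and loess the ratio differences were 0.17 for Tas2r121, which did not pass, and 0.25 for Piezo2. Aaed1 (0.76 ± 0.16, adjusted p = 0.0456) and Serinc1 (0.41 ± 0.08, adjusted p = 0.0456) completed the group, with 0.11 and 0.15 in Cy5. Each passed in the ratio in 3 of the 16 fits with 1 array left out, and with normexp and loess Aaed1 was at 0.19 and neither passed. In Cy5, Aaed1 was well above background on 0 of the 8 intestine arrays, and Serinc1 passed without removal of the array median (0.41, adjusted p = 0.0242).

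The 75 called probes with a gene symbol belonged to 75 genes, so no further probe of these genes passed, where 0.486% of all probes did. Of the 75 genes, 33 had further probes among those kept, 45 in number, of which 33 had the same sign. Their median difference was 0.06. For the genes higher in OH it was 0.07 over 37 probes, and for those lower -0.18 over 8 probes. The median of the mean log2 Cy5 signal was 8.83 for these other probes and 7.03 for the called probes of the same 33 genes. The called probes were 45% GC in the median, as were all probes kept. Across all probes kept, probe GC correlated with the difference at Pearson's r = -0.32 in Cy5, -0.28 in Cy3 and -0.08 in the ratio.

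Of the genes fixed from the other assays of the study and reported here, Map2k3 passed and Mapk3, Ghrl, Gpr39, Mki67, Ogg1, Lct and Gapdh did not, while Ptgs2 was not well above background on all 4 arrays of any group. The study had picked Map2k3 and Mapk3 for PCR from these same arrays, so their values here are not independent of that choice. Ghrl, which encodes the precursor of ghrelin and obestatin, had a ratio of 3.12, 3.73, 2.91 and 2.97 in C stomach and 2.55, 3.88, 3.41 and 3.53 in OH stomach. In intestine it was -1.40, -1.76, -0.73 and -1.17 in C and 0.25, -1.03, -1.89 and -1.19 in OH. The OH and C arrays overlapped in both tissues, with a difference of 0.23 ± 0.27 (adjusted p = 0.751, limma). Gpr39, a proposed receptor, had 0.09 ± 0.11 (adjusted p = 0.766), Glp1r 0.08 (adjusted p = 0.792) and Mboat4, the enzyme that acylates ghrelin, -0.18 (adjusted p = 0.775). The ratio of Ghrl, Gpr39, Gapdh and Mki67 changed sign under at least 1 of the settings tried. The proliferation marker Mki67 had -0.22 ± 0.13 (adjusted p = 0.482) and the repair glycosylase Ogg1 -0.17 ± 0.11 (adjusted p = 0.505). Lactase, Lct, had 0.32 ± 0.35 (adjusted p = 0.730), and Gapdh 0.01 ± 0.16 (adjusted p = 0.979).

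Gene lists mostly stayed near the median of all probes, which was 0.01 in the ratio, -0.05 in Cy5 and -0.03 in Cy3. Of 26 genes of DNA replication and mitosis, 19 were below 0 in the ratio and 1 passed, with a list median of -0.13. That gene was Kif23, a kinesin of cytokinesis, at -0.38 ± 0.08 (adjusted p = 0.0451), and its difference was -0.08 in Cy5 and 0.31 in Cy3. It passed in 3 of the 16 fits with 1 array left out. Ccnb1 (-0.48) and Bub1b (-0.37) followed with adjusted p-values of 0.0893 and 0.0662. In Cy5 the list median was -0.03 with 0 of 26 past the threshold, and in Cy3 it was 0.11 with 15 higher and 3 lower, beside 24.9% higher and 33.9% lower of all probes.

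Of 90 cytosolic ribosomal proteins, only Rpl29 passed in the ratio (list median -0.04), and 59 were below 0. In Cy5 26 of the 90 fell, 28.9% against 7.01% of all probes, and in Cy3 61 were lower, where 33.9% of all probes were lower. Rpl14 (-0.26, adjusted p = 0.0592) and Rpl7a (0.21, adjusted p = 0.0686) lay next to the threshold in the ratio, in opposite directions. The Cy5 calls of this list were 0 of 90 both with quantile scaling and without removal of the array median. Of 35 histone genes, 1 rose in the ratio, the linker histone Hist1h1d (H1f4 in RefSeq) at 0.48 ± 0.10 (adjusted p = 0.0456), with -0.17 in Cy5 and -0.64 in Cy3. That call held in 4 of the 16 fits with 1 array left out. Other histone genes fell in Cy5, 8 of 35, and 24 were lower in Cy3, beside 7.01% and 33.9% of all probes, and the list median was 0.10 in the ratio. With quantile scaling 5 of the 35 fell in Cy5, and without removal of the array median 1 rose and 1 fell.

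Among 26 immediate early genes none passed in the ratio. In Cy5 2 of the 26 fell, 7.69% beside 7.01% of all probes. These were Egr3 (-1.11) and Fosb (-1.03), which fell together with Cy3 (-0.77 and -1.08). Their ratio differences were -0.32 and 0.07. None of 22 genes of cholesterol synthesis passed, although 19 were below 0 with a median of -0.11. That median was -0.27 in stomach and 0.05 in intestine. The brush border enzymes were above 0 for 12 of 15, median 0.26, at -0.05 in stomach and 0.44 in intestine, and none passed. No gene passed in the ratio in the lists of p53 targets (18), apoptosis (17), heat shock proteins and chaperones (23), antioxidant enzymes (26), base excision repair (15), prostaglandin synthesis and receptors (13), respiratory chain and ATP synthase (93), proteasome (49), translation factors (60), splicing factors (52) and forkhead box O factors (3). The last had a median of 0.51 in the ratio, with Foxo3 at 1.13 ± 0.29 (adjusted p = 0.0878), -0.45 in Cy5 and -1.56 in Cy3. At an unadjusted p under 0.05 limma called 3050 of all probes in the ratio.

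**Figure D4:**
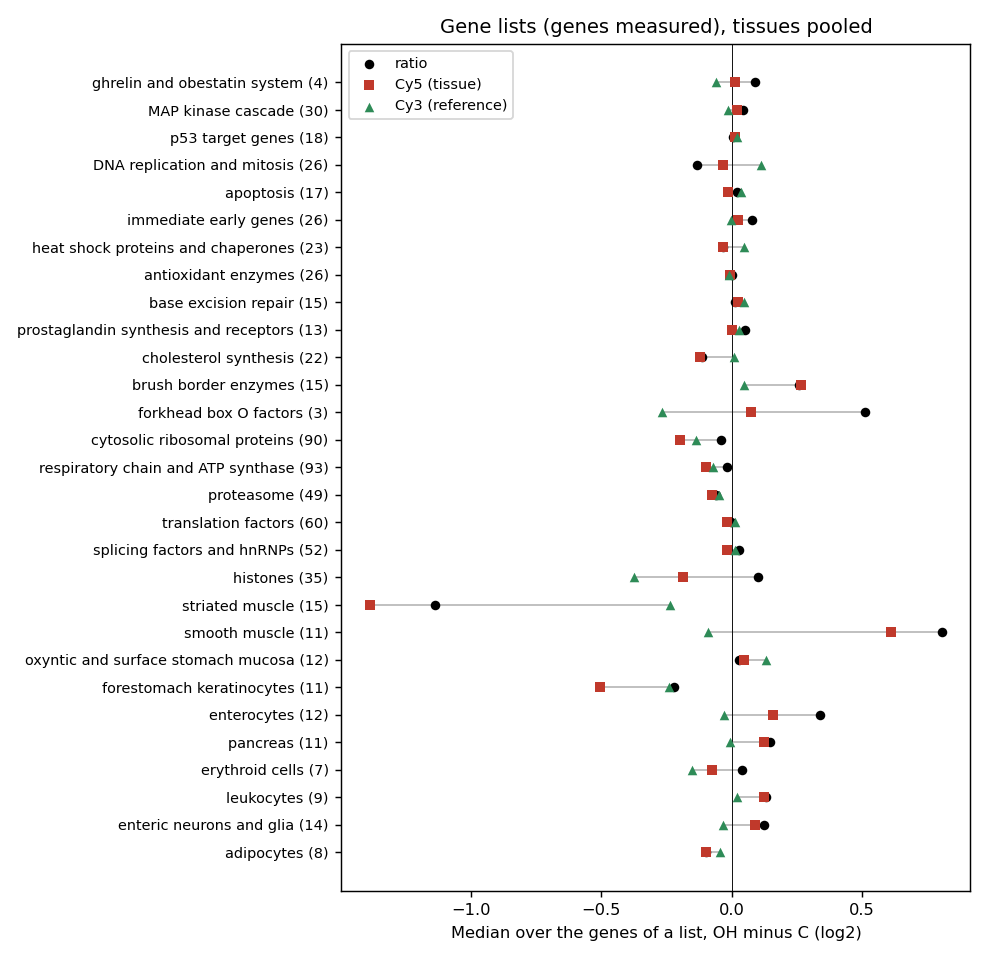
Median difference between OH and C over the measured genes of each list (number in brackets), tissues pooled, as log2 ratio (black circles), Cy5 (red squares) and Cy3 (green triangles). Most functional lists lie close to 0 in the ratio, the exceptions being the 3 forkhead box O factors (0.51) and the brush border enzymes (0.26), and histones lie at -0.38 in Cy3 and 0.10 in the ratio, while the marker lists of striated muscle (-1.14) and smooth muscle (0.81) lie apart.

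The 2 lists with the largest medians were markers of muscle, and none of their genes passed. Smooth muscle genes were above 0 for 11 of 11, with a median of 0.81, at 1.39 in stomach and 0.10 in intestine. Their summed level, as the mean log2 ratio, was -2.63 to -1.37 on C stomach arrays and -2.59 to 1.03 on OH stomach arrays, which overlapped. Myh11 (0.88 ± 0.49, adjusted p = 0.442) and Tagln (0.88 ± 0.41, adjusted p = 0.336), both proteins of the contractile apparatus, are examples. Striated muscle genes were below 0 for 14 of 15, median -1.14, at -2.22 in stomach and 0.02 in intestine. Their mean was -0.89 to 3.46 on C stomach and -0.55 to 0.97 on OH stomach arrays. In these bulk samples a different share of muscle in the tissue piece and a different level of RNA per cell cannot be told apart. None of the striated and smooth muscle markers is among the 103 probes. The forestomach keratinocyte markers had a median of -0.22, at -0.64 in stomach, and the pancreas markers of 0.15, and no marker of mucosa, forestomach, enterocytes, pancreas, erythroid cells, leukocytes, enteric neurons and glia, adipocytes or sex passed either.

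**Figure D5:**
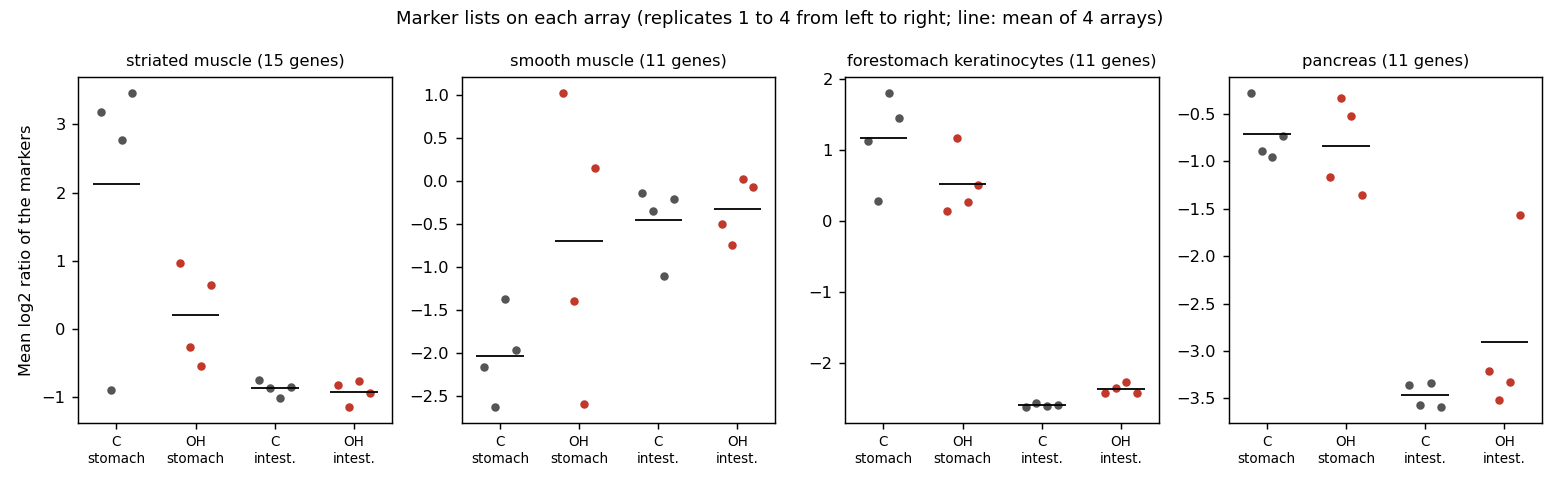
Mean log2 ratio of the markers of striated muscle, smooth muscle, forestomach keratinocytes and pancreas on each of the 16 arrays, grey for C and red for OH, with a line at the mean of 4 arrays. C stomach replicate 2 lies at -0.89 for striated muscle, below the other C stomach arrays at 2.77 to 3.46, and OH middle intestine replicate 4 lies at -1.56 for pancreas, above the others of its group at -3.51 to -3.21.

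Whether the response differed between the tissues was tested directly. In limma 0 of 21174 probes passed for the difference between the intestinal and the gastric response (smallest adjusted p 0.394), and 1238 did so at an unadjusted p under 0.05. It was also 0 with normexp and loess, with all probes kept and with the replicate number as a block. Without C stomach replicate 2, 68 probes passed, 64 of them with the larger value in intestine. These included 7 of the 15 striated muscle markers, among them Tnni2, and 0 of the 103 probes of the pooled comparison. C stomach replicate 2 had been singled out above by its low striated muscle markers, so their calls are not independent of leaving it out.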

How the data were processed

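Total RNA of 16 samples was hybridized on 2-colour Agilent rat arrays, and groups were taken from the labels. Per the file headers the authors deposited Feature Extraction 10.10.1.1 output (10.7.3.1 per the labels) with the raw and processed intensity of both dyes. The processed intensity was background-subtracted, detrended and Lowess-normalized between the dyes of an array by the authors, with surrogate values for dim spots and no scaling between arrays, so processed Cy5 and Cy3 of an array are not independent. The deposited table of log10 ratios, of the same arrays, was used as an alternative. The scanner file of OH stomach replicate 1 had been saved with rounded signals.

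Log2 ratios of Cy5 to Cy3 were taken without control and outlier spots, spots of a probe were averaged, and 9193 of 30367 probes were dropped. The 21174 left had at least 3 values per group and 1 group in which Cy5 was marked well above background, for at least 0.5 of the spots, on all 4 arrays. C and OH arrays were fitted in limma 3.58.1 under R 4.3.3 with tissue and treatment, Benjamini-Hochberg adjustment and a threshold of 0.05. Each channel was fitted the same way after its array median was subtracted. The fit was tested on simulated data whose noise was independent between arrays. They held no effect of slide, scan day or rat, so that test says nothing on such effects. The number of arrays limits the precision, and p-values measure only the spread between these arrays, which may share a rat or a litter. Same-numbered arrays deviated together (r over 0.1) in 5 of 8 pairs of the same treatment (-0.12 to 0.32). They also did so in 3 of 8 pairs of the same tissue and different treatment (-0.40 to 0.51). This did not settle whether a number stands for a rat. The main fit did not take the numbers as pairs, and fits with same-numbered arrays blocked or averaged are given below.

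Genes were named by a rule: those past the threshold and apart in both tissues with the largest differences, split by whether Cy5 moved with the ratio, the genes of the other assays of the study, and list members past the threshold. A gene that the rule covers is not reported here. Members, lists and rule were chosen with earlier results of these data known, and the study had picked Map2k3 and Mapk3 from these same arrays. Mob1b, Abhd15, Cep290, RGD1564676, Abl1, Foxo3, Glp1r, Mboat4, Myh11, Tagln, Tnni2, Mapk8, Map2k2, Map3k4, Ccnb1, Bub1b, Rpl14, Rpl7a, Egr3 and Fosb lie outside it and were chosen after their values were seen. Symbols are those of the array design, and 13850 of 16240 accessions were found in RefSeq (GRCr8). Alternatives covered background, normalization, scaling, filter, outlier spots, model, blocks, weights, threshold, probes per gene and single arrays left out; leaving out 2 arrays together was added after seeing the data, as were the alternatives for the difference between tissues. PCR, protein and histology data, and the lower dose, were not analysed here.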

Additional observations from a re-analysis of the deposited data

Results flagged for a closer look

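In 12 of the 160 groups of 4 arrays examined, the highest or the lowest array lay far from the other 3, where chance gives about 1 in 20. C stomach replicate 2 was the array apart in 5 of them. Its log2 ratio was -0.0432 for Reep3 (others -0.20 to -0.18), -0.69 for Diaph3 (others -1.22 to -1.14) and 0.0280 for Map2k3 (others 0.45 to 0.50). Its marker means were -0.89 for striated muscle (others 2.77 to 3.46) and -0.0353 for adipocytes (others 0.46 to 0.52). For these 3 genes the array lay nearer to the OH arrays than the other C stomach arrays did, and the call was kept without it.

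C middle intestine replicate 3 lay apart for Calu at -1.35 (others -0.70 to -0.65) and for Hist1h1d at -0.93 (others -0.59 to -0.55). Asmt was 0.52 on C middle intestine replicate 2, against -0.32 to -0.21 on the others. Rpl29 was 0.0379 on C stomach replicate 1, against -0.01 to 0.00 on the others. Kif23 was -0.21 on OH middle intestine replicate 1, against 0.04 to 0.05 on the others. The pancreas markers averaged -1.56 on OH middle intestine replicate 4 (others -3.51 to -3.21), and the adipocyte markers averaged -1.36 on OH stomach replicate 2 (others 0.34 to 0.50).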

How the results depend on the processing

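The main counts were 103 probes past the threshold in the ratio, 63 of them with arrays apart in both tissues, 1708 in Cy5, 12449 in Cy3 and 18 in the ratio and Cy5 together. Where a count moved, the cause was not tested unless named. With normexp and loess the first 2 counts were 204 and 111, and 74 of the 204 were among the 103. Scaled between arrays they were 8 and 8. With no filter on dim probes they were 2062 and 943, of 30367 probes tested, and with probes bright in both channels 164 and 88. Without tissue in the fit, which adds the tissue difference to the spread, they were 16 and 13. With the median of each array subtracted 121 passed, 70 higher and 51 lower. With the replicate block they were 63 and 37, 52 of the 63 being among the 103, and 11 passed in the ratio and Cy5 together; with this block Igfbp1 (adjusted p = 0.0163), Map2k3 (0.0359) and Reep3 (0.0156) passed, and the difference between tissues stayed at 0. With same-numbered arrays as a random block they were 42 and 34, and with these averaged as 4 rats against 4, which uses fewer samples, 0 and 0, with 562 in Cy5 and 0 in the ratio and Cy5 together. With the slide as a random block, which leaves 1 degree of freedom between slides, they were 1120 and 152, with 4219 in Cy5 and 329 jointly. An ordinary ANOVA of the same model gave 300 and 137, trend and robust moderation 183 and 95, and array weights 974 and 136, while 14 and 14 passed at an adjusted p of 0.01, 3050 and 164 at an unadjusted p of 0.05, and 25 and 19 with 1 probe per gene, of 14526 tested.

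In Cy5, quantile scaling gave 918 (331 higher, 587 lower), normexp with quantile scaling 811, and no filter 1022, and jointly with the ratio the last 2 gave 8 and 93. Without removal of the array median Cy5 gave 2416. The Cy3 count stayed between 8818 and 15663 under all settings.

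Leaving out 1 array at a time gave 30 to 179 in the ratio, 25 to 124 with arrays apart and 3 to 32 jointly with Cy5. The ratio count was 30, 36 and 37 without C stomach replicates 3, 1 and 4, and 179 without replicate 2. It was 161, 32 and 64 without OH stomach replicates 1, 2 and 4, 36, 40 and 45 without C middle intestine replicates 1, 2 and 3, and 44, 58, 40 and 31 without OH middle intestine replicates 1 to 4. The joint count was 3 without OH stomach replicate 2 or C middle intestine replicate 1, 32 without C stomach replicate 2, 27 without OH stomach replicate 3, 16 without OH stomach replicate 1 or C middle intestine replicate 4, and 4 to 10 without each of the others. Without C stomach replicate 2 and OH middle intestine replicate 4 together the counts were 39, 34, 1003 in Cy5 and 6 jointly. The difference between tissues gave 68 without C stomach replicate 2. In 1030 fits of the genes named by the rule, none of the 22 called genes changed sign, and in 271 fits the call was lost. The 1030 include fits of genes not called in the main fit, which had no call to lose. Genes outside the rule were not included. With the replicate block Wdr20, Aaed1, Asmt, Serinc1, Gpr152, Rdh8, Rpl29, Map2k7, Kif23 and Hist1h1d lost the ratio call. Normexp and loess brought the differences of 13 called genes down by over 1.5 times, each given beside the gene in the report but for Rdh8 (-0.25, adjusted p = 0.0417).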
